A study of Rattus norvegicus with 20 samples.

Results

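Female rats that had been exposed to betamethasone before birth and then to NMDA-triggered spasms (BYS) were compared with females that had met neither (SNS). The labelled condition chose the members, 4 BYS and 4 SNS samples, which are 8 of the 20 samples of the series. All were Sprague-Dawley rats, and each sample was RNA of the hypothalamic arcuate nucleus taken on postnatal day 15. The mothers received 2 injections on gestational day 15, of betamethasone at 0.4 mg/kg each for BYS and of saline for SNS. BYS pups were given N-methyl-D-aspartate (NMDA), an agonist of glutamate receptors that provokes flexion spasms in infant rats, on postnatal days 12, 13 and 15, and saline as their postnatal treatment. SNS pups had no spasms and were treated with saline. The 4 BNS samples, from betamethasone-exposed females without spasms that were also treated with saline, were used to find which BYS changes were not found with betamethasone alone. BYA and BYP females had the betamethasone and NMDA of BYS, at the same dose and days. Their postnatal treatment was adrenocorticotropic hormone (BYA) or the complement receptor antagonist PMX53 (BYP) instead of saline. BYS differs from SNS in the steroid, the NMDA and the spasms together, and these cannot be told apart in that comparison. Litters were culled to females, and the labels do not say which pups were sisters, so p-values measure the spread between these samples.

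The arcuate nucleus holds neurons that steer appetite, growth and reproduction. Among them are cells making agouti-related peptide and neuropeptide Y, which favour feeding, and cells making pro-opiomelanocortin and its partner peptide, which restrain it. Infantile spasms are an epilepsy of the first year of life that is treated with adrenocorticotropic hormone, and prenatal betamethasone, a synthetic glucocorticoid, makes rat pups more prone to spasms. The markers of the labelled tissue were present. Agrp, Npy, Pomc, Cartpt, Ghrh, Kiss1 and Th were well above background in SNS, BNS and BYS alike, in each of the 12 samples, and the log2 intensity of Agrp was 13.89, 14.45, 14.94 and 14.11 in SNS and 14.54, 14.60, 14.31 and 14.69 in BYS.

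RNA was hybridized to 2-colour rat arrays in which the Cy3 and the Cy5 channel carry different animals of the same condition, so each channel was used as 1 sample. Values are log2 intensities after background correction and quantile normalization, on which a difference of 1 is a factor of 2. For SNS, BNS and BYS, the 2 arrays of a condition shared a slide that held no other condition, so slide and condition cannot be told apart, and 2 arrays per condition limit the precision. The SNS samples were dimmer. Their median signal was 5.42 to 11.4 times the background, against 14.0 to 19.8 times in BYS and 14.1 to 19.9 times in BNS, and 51.5% to 74.9% of spots in SNS, 72.8% to 84.5% in BYS and 67.7% to 81.2% in BNS were well above background. The arrays also hold 10 spike-in controls, which do not come from the rats. Relative to the channel median, their median BYS minus SNS log2 difference was −1.66 in Cy3 and −0.77 in Cy5. The part of this gap in the BYS and BNS changes from SNS was not tested. In a whole tissue, fewer cells of a type and less RNA per cell cannot be told apart.

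In a search added after seeing the data, 1 BYS array stood apart in the upward direction. BYS replicates 3 and 4 shared an array, and in 27 of 16448 genes both lay at least 1 log2 unit above all other 10 samples of SNS, BNS and BYS, while no gene had both at least 1 unit below. The same search gave 0 genes higher and 0 lower for the array of BYS replicates 1 and 2, and 1 gene higher in all for the 4 arrays of SNS and BNS, with 3 to 40 genes lower on each of these 4. The 27 genes were listed after their values had been seen, and they are given as a description.

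The chemokine Ccl3, which draws immune cells to a site of injury, had log2 intensities of 12.04 and 12.08 in BYS replicates 3 and 4 against 7.79 and 7.91 in replicates 1 and 2 and 7.78, 7.81, 7.43 and 7.62 in SNS. Replicates 1 and 2 were thus at the SNS level. Osteopontin (Spp1), a matrix protein made by activated microglia, had 13.31 and 12.42 against 8.24 and 8.79 within BYS, and 8.06, 8.44, 8.14 and 8.08 in SNS. For the activity-induced transcription factor Fos the BYS values were 8.86, 9.16, 11.04 and 10.47 and the SNS values 8.41, 8.98, 9.14 and 9.44. In these genes, too, replicates 3 and 4 were the high ones. The other genes were the cytokine and adhesion genes Ccl2, Ccl4, Tnf and Icam1, the scavenger and pattern receptors Olr1 (oxidized lipoprotein receptor) and Cd14, the transcription factors Fosl1, Atf3, Egr4, Cebpd and Bcl3, the stress proteins Hspb1 and Hmox1, the cell cycle brakes Cdkn1a and Gadd45b, the glial and lysosomal proteins Lgals3, Gpnmb and Timp1, and Angptl4, Tubb6, Rgs1, Rasl11a, Trim47 and FQ220235.

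The other rats given NMDA, which had the same prenatal betamethasone and NMDA days as BYS, show where these levels lie. BYP rats, which received the complement receptor antagonist PMX53, had all 4 samples above every SNS and BNS sample and above BYS replicates 1 and 2 in 26 of the 27 genes. In BYA rats, which received adrenocorticotropic hormone, replicates 1 to 4 lay above that range in 25, 15, 5 and 27 of the genes. BYS replicates 1 and 2 were labelled as having had spasms too. That they lay at least 1 log2 unit below replicates 3 and 4 in these 27 genes was required by the choice of the genes. In Cebpd, BYS replicates 1 and 2 (11.33 and 11.12) lay above every SNS and BNS sample. Whether animals or arrays make the difference cannot be told apart, since both rats of each pair share an array. Of the 27 genes, 11 were called between BYS and SNS, 6 with the array as a random block, and 0 between BYS and BNS. Each BYS array was therefore left out in turn, an alternative chosen after seeing the data, and calls that were lost with it are named below. Each SNS array was left out in turn too. Of 76 results on single genes against SNS, 15 lost the call without SNS replicates 1 and 2, and 15 without SNS replicates 3 and 4. Those genes are not named here.

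**Figure D1:**
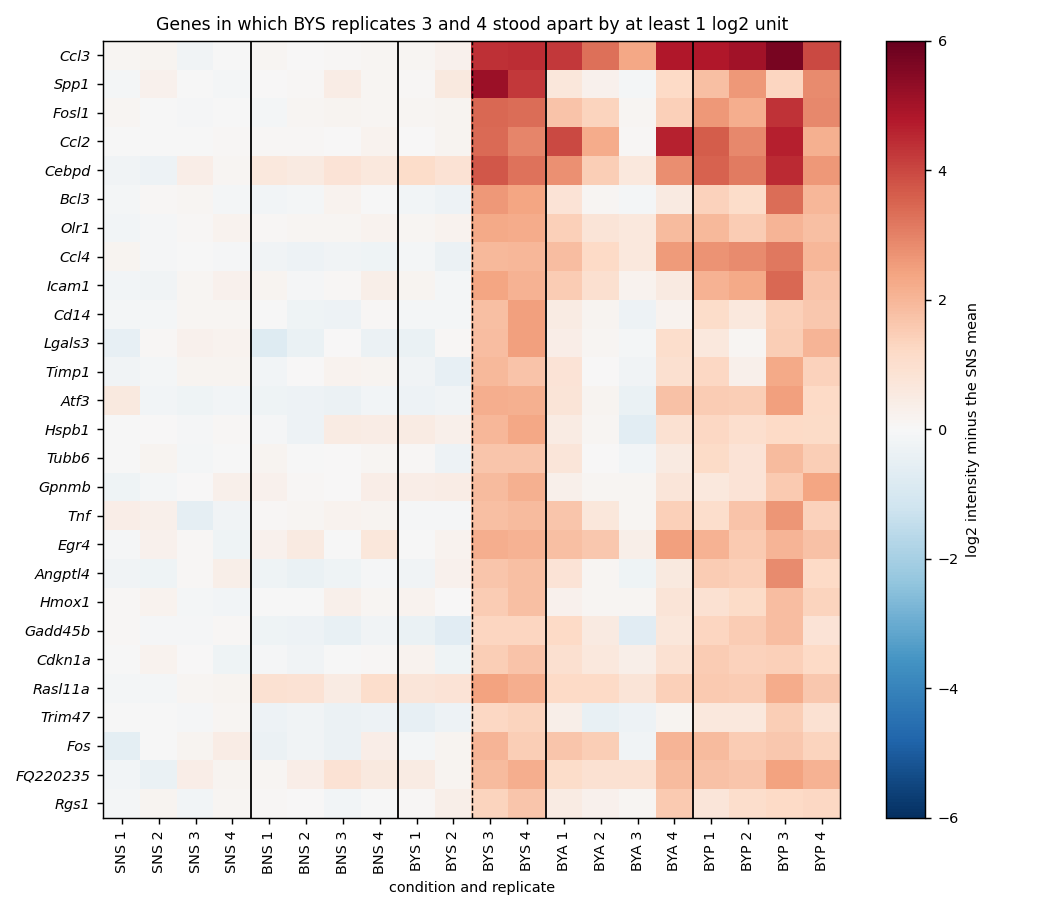
Log2 intensity minus the SNS mean (colour) of the 27 genes, in rows, in which BYS replicates 3 and 4 both lay at least 1 log2 unit above the other 10 samples of SNS, BNS and BYS. Columns are the 20 samples by condition and replicate, solid lines part the conditions and the dashed line parts the 2 BYS arrays. BYS replicates 1 and 2 have the colours of SNS and BNS, and all 4 BYP samples lie above these in 26 of the 27 genes.

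BYS differed from SNS in a large share of the transcriptome. With limma, which fits a linear model to each gene, here to the 20 samples and with a term for the dye, 4630 of 17083 genes were called at a Benjamini-Hochberg adjusted p under 0.05 (27.1%), 2480 higher in BYS (14.5%) and 2150 lower (12.6%). The median log2 change over all genes was −0.03, and that of called genes was 0.51 in size. Past a factor of 2 there were 367 genes higher and 45 lower. BNS differed from SNS in 4884 genes (28.6%), 2584 higher (15.1%) and 2300 lower (13.5%). Both changes are measured from the same 4 dim SNS samples. With the array as a random block, 2377 genes were called between BYS and SNS, 66% of them higher instead of 53.6%, and 1435 were called, 66.1% higher, when the channels were scaled to equal medians.

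The largest rises were those of genes of different functions. Among genes called and well above background in all 8 samples whose BYS values lay all above the SNS values (804 genes, and 869 all below), the 10 with the largest rise were Cebpd, Herpud1, Serping1, Rps20, Ctsl, Slc25a4, Hbe2, Rtn1, Hnrnpf and Gstm5. Herpud1, which helps to clear misfolded proteins from the endoplasmic reticulum, had log2 intensities of 9.74, 10.01, 10.24 and 10.43 in SNS and 11.80, 12.10, 12.16 and 12.00 in BYS. The groups did not overlap, and the log2 change was 1.91 (standard error 0.14, limma adjusted p = 8.96e-08), a factor of 3.76. BNS values were 11.89, 11.82, 11.69 and 11.76, overlapping BYS, with a BYS minus BNS difference of 0.23.

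Serping1, the C1 inhibitor that restrains the start of the complement cascade, rose by 1.82 on the log2 scale (standard error 0.25, limma adjusted p = 5.06e-05), from 9.67, 9.61, 10.04 and 9.80 to 11.33, 11.13, 11.81 and 12.11. Ctsl, the lysosomal protease cathepsin L, rose by 1.72 (limma adjusted p = 4.24e-07), from 12.04, 11.99, 12.51 and 12.24 to 13.85, 14.07, 14.05 and 13.68. No SNS sample reached the lowest BYS sample in either gene. Slc25a4, which exchanges ADP and ATP across the inner mitochondrial membrane, rose by 1.67 (limma adjusted p = 1.66e-07). Rtn1, a reticulon of neuronal endoplasmic reticulum, rose by 1.62, the splicing factor Hnrnpf by 1.57 and the glutathione transferase Gstm5 by 1.53. The BNS minus SNS changes of these 6 genes, measured from the same SNS samples, were 1.65, 1.74, 1.80, 1.64, 1.57 and 1.53. Rps20, a ribosomal protein with many near-identical copies in the genome, rose by 1.81, with SNS replicate 1 the lowest (12.89, 14.16, 14.31 and 14.17 in SNS and 15.63, 15.72, 15.67 and 15.77 in BYS), and it is uncertain which copies its probe reads.

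Hbe2, an embryonic globin of red blood cells, rose by 1.62 against SNS and by more in BNS (2.25). Of 8 red blood cell markers, 2 were called higher in BYS and 5 in BNS, where 14.5% and 15.1% of all genes were. The mean log2 level of these markers was 12.0 to 12.2 in SNS, 12.1 to 12.8 in BYS and 12.3 to 13.0 in BNS. With the array as a random block, 0 of the 8 were called higher in BYS. Without BYS replicates 3 and 4 there were 0, and without replicates 1 and 2 there was 1. How much blood contributed to the change was not tested. Cebpd, a transcription factor induced by inflammation and glucocorticoids, had the largest log2 rise of the 10, 2.24 (standard error 0.57, limma adjusted p = 0.00764). Its BYS values were 11.33, 11.12, 13.96 and 13.48 and its SNS values 10.03, 9.93, 10.61 and 10.35, so that the rise was mostly that of replicates 3 and 4. Without these 2 it was 1.00 (limma adjusted p = 0.183), and the gene was no longer called.

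Among the 10 genes with the largest fall were Etv3, Cx3cr1, Adam7, Sec61b, Haus1, Pde6d, Cox6c-ps1, Npl and Myorg. Cx3cr1, the fractalkine receptor through which neurons quieten microglia, had log2 intensities of 11.98, 12.10, 11.84 and 11.86 in SNS and 10.44, 10.59, 10.55 and 11.33 in BYS. It fell by 1.22 on the log2 scale (standard error 0.16, limma adjusted p = 2.9e-05), and BNS lay between at 11.02, 11.10, 11.35 and 11.41. The transcriptional repressor Etv3 had the largest fall of the 10, −1.54 (standard error 0.34, limma adjusted p = 0.00299), with SNS values of 10.70, 10.49, 10.06 and 9.75 and BYS values of 8.95, 8.57, 8.19 and 9.14. Both groups were widely spread without overlapping.

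Pde6d, a carrier of lipid-modified proteins to the cilium, fell by 1.01 (limma adjusted p = 0.000296). Sec61b, a subunit of the channel that passes new proteins into the endoplasmic reticulum, fell by 1.07 (limma adjusted p = 0.00331), and its BYS values were widely spread (10.39, 11.08, 11.56 and 11.97). The log2 change was −0.99 for Myorg, a glycosidase of astrocytes, −1.05 for the spindle subunit Haus1 and −1.09 for Adam7, a protein of the ADAM family. In SNS, Haus1 had 10.71, 9.48, 9.19 and 8.96 and Adam7 had 10.67, 10.82, 11.34 and 12.49. The highest SNS sample of each thus lay well above the next. The sialic acid lyase Npl fell by 1.00. Cox6c-ps1, a pseudogene whose signal cannot be told from that of its parent gene, fell by 1.00. Without BYS replicates 1 and 2, Sec61b (−0.55, limma adjusted p = 0.0585), Npl (−0.51, 0.126) and Adam7 (−1.01, 0.0619) were not called.

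**Figure D2:**
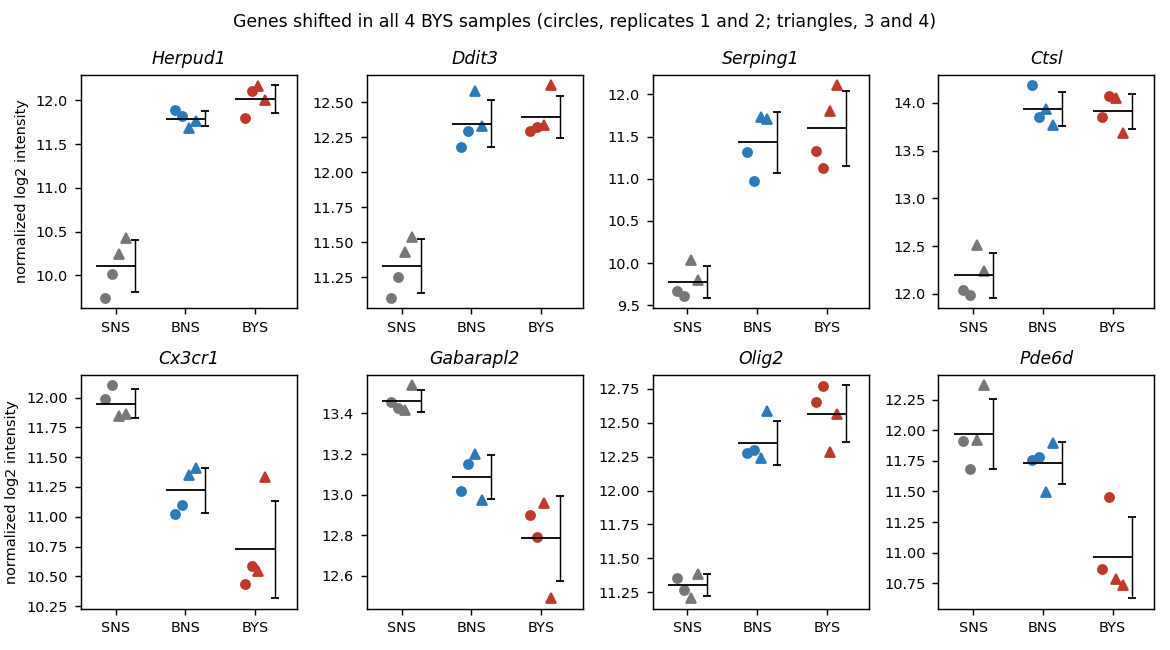
Normalized log2 intensity (vertical axis) of 8 genes in the 4 SNS, BNS and BYS samples. Points are samples, circles for replicates 1 and 2 and triangles for replicates 3 and 4, which share an array, and lines and bars are the mean and SD. In Herpud1, Ddit3, Serping1 and Ctsl the BNS and BYS samples overlap and lie above SNS, whereas in Gabarapl2 and Pde6d all 4 BYS samples lie below both other groups.

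Stress of the endoplasmic reticulum, the compartment in which secreted and membrane proteins fold, is met by the unfolded protein response, in which the sensors Ern1, Eif2ak3 and Atf6 raise chaperones through the factors Xbp1 and Atf4. Of 36 chaperone and unfolded protein response genes tested, 17 rose and 0 fell in BYS against SNS, a share of 47.2% against 14.5% of all genes higher, with a median log2 change of 0.27 against −0.03. In BNS 10 rose and 1 fell, with a median of 0.18. The 3 other scalings gave 7 to 15 rises and 0 falls, with medians of 0.26 to 0.30, and there were 10 rises and 0 falls with the array as a random block. Without BYS replicates 3 and 4 there were 7 rises and a median of 0.27, and without replicates 1 and 2 there were 13 and 0.37.

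The promoters of 3 called genes are shown because they carry, in capitals, the endoplasmic reticulum stress element, CCAAT and CCACG with 9 bases between them, to which the factors of this response bind. The motif was searched on both strands from 250 bases before to 50 after the start site in 33469 rat promoters (RefSeq, GRCr8) and was found in 22 of them (0.0657%). Promoters were found for 28 of the 36 genes by symbol, and 7 of these held it: Hspa5, Xbp1, Creld2, Dnajc3, Calr, Canx and Hsp90b1. Hspa5 is on the plus strand at chr3:38452766-38453015, Xbp1 on the plus strand at chr14:84604373-84604622 and Creld2 on the plus strand at chr7:121789134-121789383, where the element runs in the reverse orientation. Each sequence is the 250 bases before the start site.
Hspa5: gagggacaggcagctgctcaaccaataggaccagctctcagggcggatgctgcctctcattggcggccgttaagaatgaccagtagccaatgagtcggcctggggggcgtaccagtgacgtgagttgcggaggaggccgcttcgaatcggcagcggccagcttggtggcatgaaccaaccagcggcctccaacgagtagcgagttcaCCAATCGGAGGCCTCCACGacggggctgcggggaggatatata
Xbp1: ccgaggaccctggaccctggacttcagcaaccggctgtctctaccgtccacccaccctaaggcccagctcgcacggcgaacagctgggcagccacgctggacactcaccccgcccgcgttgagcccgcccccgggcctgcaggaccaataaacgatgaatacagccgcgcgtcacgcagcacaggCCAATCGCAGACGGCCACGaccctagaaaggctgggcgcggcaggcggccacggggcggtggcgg
Creld2: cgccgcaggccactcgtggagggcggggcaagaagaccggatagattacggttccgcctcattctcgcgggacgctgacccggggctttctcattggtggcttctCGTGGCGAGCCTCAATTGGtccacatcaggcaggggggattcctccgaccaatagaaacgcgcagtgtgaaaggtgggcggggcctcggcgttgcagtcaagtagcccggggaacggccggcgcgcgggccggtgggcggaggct

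Of the 7 genes with the element, Hspa5, Xbp1 and Creld2 were called higher in BYS than in SNS, and Calr, Canx, Dnajc3 and Hsp90b1 were not, with log2 changes of 0.14, −0.18, 0.52 and −0.06. Hspa5 encodes BiP, the main chaperone of the compartment, and had log2 intensities of 13.20, 13.50, 14.64 and 14.45 in SNS, 14.74, 14.63, 14.73 and 14.66 in BNS and 14.78, 14.94, 15.30 and 14.55 in BYS. Only SNS replicates 1 and 2 were far lower, the SNS and BYS ranges overlapped, and the change of 0.95 (standard error 0.34, limma adjusted p = 0.0466) was no longer called without SNS replicate 1 or 2, BYS replicate 1, 2 or 3, or either BYS array. Xbp1, the factor activated by splicing, rose by 0.66 (standard error 0.12, limma adjusted p = 0.000815) with 3 measured SNS samples, and by 0.09 and not called with the processed signals of the scanner software. Creld2 rose by 0.53 (limma adjusted p = 0.0429).

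Ddit3, the death-promoting factor CHOP of the same response, had log2 intensities of 11.10, 11.25, 11.43 and 11.54 in SNS and 12.30, 12.32, 12.33 and 12.62 in BYS, a change of 1.06 (standard error 0.13, limma adjusted p = 1.91e-05). All 4 BNS samples were at 12.18, 12.29, 12.58 and 12.33, among the BYS samples. Manf, a secreted protein that protects cells under this stress, rose by 0.92 (limma adjusted p = 0.000751), Hspa4, a partner of cytosolic chaperones, by 1.13 (limma adjusted p = 0.000361), and the translation-linked factor Atf4 by 0.48 (limma adjusted p = 0.0044), which without BYS replicates 3 and 4 was 0.40 and not called (limma adjusted p = 0.06). The protein disulfide isomerase Pdia6 rose by 0.69, Sdf2l1 by 0.63 and the sensor Ern1 by 0.49. The sensors Eif2ak3 and Atf6 had log2 changes of −0.07 and 0.06 and were not called.

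In cytosolic stress genes the BYS samples differed among themselves. Hspb1, a small heat shock protein, had BYS log2 intensities of 10.83, 10.65, 12.34 and 12.68 against 10.33, 10.38, 10.29 and 10.43 in SNS, and Hmox1, the heme-degrading enzyme induced by oxidative stress, had 10.35 and 10.61 in BYS replicates 3 and 4 against 8.90, 9.01, 8.69 and 8.65 in SNS, with replicates 1 and 2 in the SNS range. In both the array of replicates 3 and 4 was the high one. Hspa1b, an inducible form of Hsp70, had 8.55, 9.92, 10.01 and 10.26 against 8.33, 8.69, 9.02 and 9.02, with replicate 1 in the SNS range. The log2 changes of 1.27, 0.88 and 0.92 were called with all samples, and without BYS replicates 3 and 4 they were 0.38, 0.10 and 0.47 and were not. Hspa1b has a near-identical neighbour, Hspa1a, and which of them its probe reads is uncertain. The constitutive chaperones Hspa8, Hsp90aa1, Hsp90ab1 and Hspd1 had log2 changes of 0.16, 0.07, −0.15 and −0.04 and were not called. The heat shock element, GAA, TTC and GAA set 2 bases apart, was found in 5 of the 28 promoters (267 of all 33469, 0.798%), and of these 5 genes 1, Hspe1, was called (0.32).

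**Figure D3:**
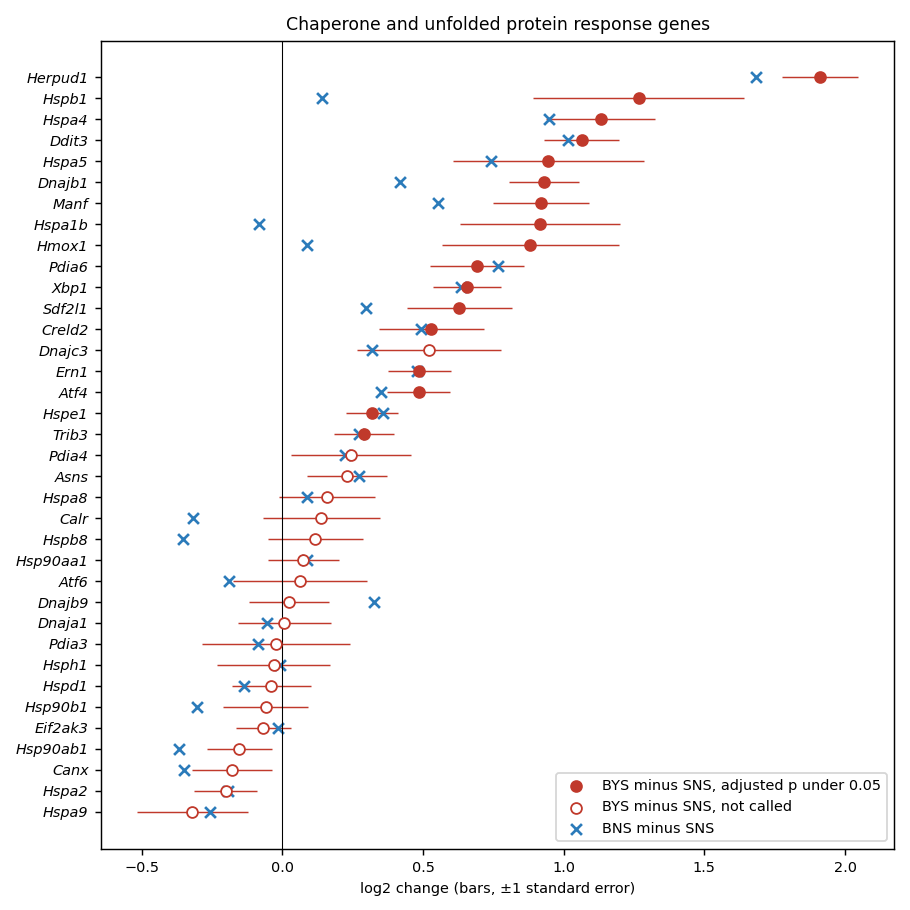
Log2 change against SNS (horizontal axis) of the 36 chaperone and unfolded protein response genes. Red circles are BYS minus SNS with a bar of 1 standard error, filled where limma called the gene, and blue crosses are BNS minus SNS. The 17 filled circles all lie above 0, and for Herpud1, Ddit3 and Xbp1 the cross lies close to the circle, whereas for Hspb1, Hspa1b and Hmox1 it lies near 0.

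The difference between the BYS and the BNS change from SNS, which equals BYS minus BNS, asks what differs when NMDA and spasms follow betamethasone. It was called for 5 of 17086 genes (0.0293%), 4 higher (0.0234%) and 1 lower (0.00585%) in BYS, with 1182 genes at an unadjusted p under 0.05 (6.92%), and for 0 genes with the array as a random block. Timp3, Pnma2, Tas2r110 and Or13m2 were the higher ones and Klhl30 the lower one, and the first 4 were also called between BYS and SNS. The probes of Tas2r110 and Or13m2 were kept only because all 4 BYS samples were well above background, so their calls are not support for a rise. With only probes well above background in all 12 samples, 2 genes were called, Timp3 and Pnma2. All 4 BYS values lay on 1 side of the 4 BNS values in 1090 of 16944 genes (6.43%). Leaving out BYS replicates 3 and 4, limma called 8 genes (5 higher), and leaving out replicates 1 and 2 it called 69 (50 higher). With equal channel medians it called 47, among which Timp3 was the only one of the 5 (limma adjusted p of 0.828 for Tas2r110, 0.733 for Or13m2, 0.0564 for Pnma2 and 0.0604 for Klhl30). Each of the 5 lost its call when some single BNS or BYS samples were left out, all 4 BNS samples for Timp3, Klhl30, Tas2r110 and Or13m2 and 3 of them for Pnma2.

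Timp3 is an inhibitor of matrix metalloproteinases that stays bound to the extracellular matrix. It was measured by 1 probe of 60 bases, shown because the leading difference rests on this spot alone, which the array design places at chr7:19679721-19679780 (rn4). The tables used here do not say in which exon it lies.
Timp3 probe: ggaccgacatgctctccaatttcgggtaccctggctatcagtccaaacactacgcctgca

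The mean of Timp3 lay on opposite sides of SNS in BYS and BNS. Its log2 intensities were 9.10, 9.08, 9.07 and 9.09 in SNS, 8.72, 8.80, 8.51 and 8.57 in BNS and 9.89, 9.10, 9.70 and 9.82 in BYS, so BNS lay below SNS and 3 BYS samples well above it, while BYS replicate 2 was at the SNS level. The gene rose by 0.54 against SNS (standard error 0.16, limma adjusted p = 0.0171), and BNS fell by 0.44 (limma adjusted p = 0.0448). The BYS minus BNS difference was 0.98 (standard error 0.16, limma adjusted p = 0.0291). Leaving out BYS replicates 3 and 4 it was 0.85 (limma adjusted p = 0.227), and without replicates 1 and 2 it was 1.11 (0.00226). Without BYS replicates 3 and 4 the rise against SNS was 0.41 and not called (limma adjusted p = 0.159). With the array as a random block neither change from SNS was called (limma adjusted p = 0.0744 for BYS and 0.139 for BNS). Of 19 matrix metalloproteinases and inhibitors, 2 rose (Timp3 and the protease Adamts9, by 1.12) and 1 fell in BYS (15.8% called, under the 27.1% of all genes). Timp1, Timp2 and Timp4 were not called (0.74, 0.05 and −0.08).

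For Pnma2, a neuronal protein related to retrotransposon capsids that is a target of autoantibodies, BYS lay between the other groups. Its log2 intensities were 12.35, 12.46, 12.65 and 12.60 in SNS, 11.06, 11.44, 11.07 and 11.38 in BNS and 11.97, 12.26, 12.16 and 11.85 in BYS, with no overlap between any 2 groups. The fall from SNS was −1.28 in BNS and −0.45 in BYS (limma adjusted p = 0.00737), and the difference remained called without either BYS array (0.0179 and 0.0215). Best2, a chloride channel, and Arid2, a subunit of a chromatin remodelling complex, lay between the groups in the same way. Best2 had 9.51, 9.68, 9.60 and 9.57 in SNS, 8.47, 8.83, 8.07 and 8.44 in BNS and 8.84, 8.86, 8.91 and 9.18 in BYS, and Arid2 had log2 changes from SNS of −0.70 in BNS and −0.33 in BYS. Their BYS minus BNS differences, 0.49 and 0.37, were not called (limma adjusted p = 0.329 and 0.501), and with either BYS array left out the change of Arid2 from SNS was not called.

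Klhl30, a kelch-domain protein, was high in BNS alone. Its log2 intensities were 8.37, 8.51, 8.31 and 8.46 in SNS, 9.03, 9.10, 9.14 and 9.06 in BNS and 8.65, 8.60, 8.44 and 8.67 in BYS. The BYS change from SNS was 0.18 and not called (limma adjusted p = 0.0965), and 2 of the 4 SNS samples were well above background. Without BYS replicates 3 and 4 the difference to BNS was −0.46 and not called (limma adjusted p = 0.141). The bitter taste receptor Tas2r110 and the odorant receptor Or13m2 were well above background in all 4 BYS samples and in 0 of the 8 SNS and BNS samples. Their BYS log2 intensities were 7.78, 7.87, 8.33 and 7.80 for Tas2r110 and 8.09, 8.23, 7.89 and 7.84 for Or13m2, which are low on this scale. As measured, Tas2r110 was 1.45-fold higher in BYS than in SNS and 1.64-fold higher than in BNS (limma adjusted p = 0.00114 and 0.0193). Or13m2 was 1.74-fold and 1.56-fold higher (3.32e-05 and 0.0324). Both genes passed the filter on dim probes only through BYS, the group in which they are high, so these p-values are not support for a rise. These folds are measured from SNS and BNS signals not well above background, and are not lower bounds. They depend on the scaling. With loess the BYS minus BNS log2 differences were 0.76 for Tas2r110 and 0.64 for Or13m2, close to those after quantile normalization. Neither was called with loess (limma adjusted p = 0.0573 and 0.0657). With equal channel medians the BYS minus BNS log2 differences were 0.11 for Tas2r110 and 0.17 for Or13m2, and with the processed signals 2.87 and 3.11. Without BYS replicates 1 and 2 the difference of Or13m2 was 0.50 and not called (limma adjusted p = 0.102).

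By the rule for genes that differ from both SNS and BNS (called against SNS, well above background in all 12 samples, BYS on 1 side of every SNS and of every BNS value, and an unadjusted p under 0.01 against BNS), 30 genes were found, 12 higher and 18 lower in BYS than in BNS. The rule uses both contrasts, so their values are a description. Besides Timp3, Pnma2, Best2 and Arid2, the highest differences were those of Dnajb1 and Top1. Dnajb1, the cochaperone that Hsp70 needs in the heat shock response, had log2 intensities of 11.75, 11.73, 11.92 and 11.78 in SNS, 12.24, 12.18, 12.12 and 12.31 in BNS and 12.60, 12.46, 13.05 and 12.79 in BYS, so that BNS was raised and BYS raised further. It rose by 0.93 against SNS (limma adjusted p = 3.39e-05), and the 0.51 difference to BNS was not called (0.279) with all samples and was called without BYS replicates 1 and 2 (0.71, limma adjusted p = 0.0251), and without replicates 3 and 4 it was 0.32 and not called. Top1, the topoisomerase that relaxes DNA ahead of polymerases, rose by 0.48 against SNS, where BNS had changed by 0.04, and without BYS replicates 3 and 4 its change was 0.41 and not called (limma adjusted p = 0.0929).

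The lowest differences included those of Pde6d, Pstk, G0s2, Nqo2 and Pth2, and none of these 5 genes was called between BNS and SNS. Pde6d had log2 intensities of 11.91, 11.68, 11.92 and 12.37 in SNS, 11.76, 11.78, 11.49 and 11.90 in BNS and 10.87, 11.45, 10.78 and 10.74 in BYS, a BYS minus BNS difference of −0.77 (standard error 0.17, limma adjusted p = 0.176). Without BYS replicates 1 and 2 this difference was −0.97 (limma adjusted p = 0.0252), and without replicates 3 and 4 it was −0.57 (0.993). Every BYS sample was the lower. Pth2, a peptide of brainstem and hypothalamic neurons, had 8.60, 8.61, 8.52 and 8.89 in BYS against 8.94, 9.13, 9.26 and 9.16 in BNS. Pstk, which helps to make the tRNA for selenocysteine, differed by −0.49, the lipolysis inhibitor G0s2 by −0.47 and the quinone reductase Nqo2 by −0.47. The fall of G0s2 against SNS (−0.44) turned to 0.05 with the processed signals and was not called without BYS replicates 1 and 2 (0.096), and Pstk and Nqo2 were not called against SNS without BYS replicates 3 and 4 (0.201 and 0.0515).

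**Figure D4:**
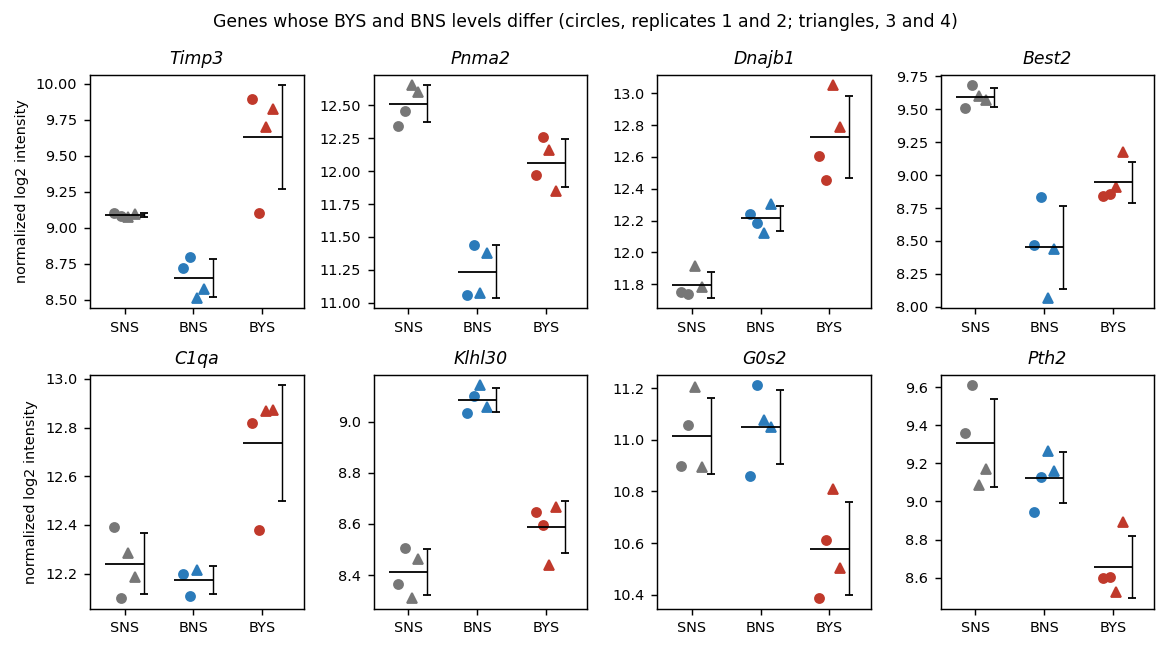
Normalized log2 intensity (vertical axis) of 8 genes in the 4 SNS, BNS and BYS samples, with circles for replicates 1 and 2, triangles for replicates 3 and 4, and lines and bars for the mean and SD. Timp3, Dnajb1 and C1qa have their highest mean in BYS, Pnma2 and Best2 lie in BYS between SNS and BNS, Klhl30 is high in BNS, and G0s2 and Pth2 have their lowest mean in BYS. C1qa has 3 measured BNS samples.

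Complement is a cascade of plasma and brain proteins that tags debris and synapses for removal, and its C5a receptor is the target of PMX53, one of the treatments in this model. Of 20 complement genes, 7 rose and 0 fell in BYS against SNS (35.0% called, against 27.1% of all genes and 14.5% called higher), with a median log2 change of 0.30, whereas BNS had 6 rises and 0 falls with a median of 0.05. The 3 other scalings gave 5 to 9 rises, 0 falls and medians of 0.29 to 0.66. There were 4 rises (median 0.19) without BYS replicates 3 and 4, and without replicates 1 and 2 there were 8 (median 0.47). Between BYS and BNS 6 genes had an unadjusted p under 0.05, all higher in BYS (30.0%, against 6.92% of all genes in either direction), and 0 were called by limma. Only 1 such gene was left without BYS replicates 3 and 4.

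The 3 chains of C1q, which starts the classical pathway, were all higher in BYS than in BNS. C1qa had log2 intensities of 12.39, 12.10, 12.29 and 12.19 in SNS, 12.20, 12.11 and 12.22 in the 3 measured BNS samples and 12.82, 12.38, 12.87 and 12.87 in BYS, a change of 0.49 (standard error 0.10, limma adjusted p = 0.00249) against SNS. BYS replicate 2 was at the SNS level and the other 3 well above it, and without BYS replicates 3 and 4 the change was 0.36 and not called (limma adjusted p = 0.0542). The BYS minus BNS difference was 0.58 for C1qa (limma adjusted p = 0.14), 0.59 for C1qb (0.571) and 0.58 for C1qc (0.439). Without BYS replicates 1 and 2 that of C1qa was 0.70 (limma adjusted p = 0.0103), and without replicates 3 and 4 it was 0.44 (0.71). C3, the hub of the cascade, had 9.08, 8.87, 9.42 and 9.10 in BYS against 8.16, 8.43, 8.30 and 8.55 in BNS, with no overlap between the groups, and a difference of 0.76 that was not called (0.568).

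Cfb, C4a and C8g were called higher in BNS than in SNS too, and C2 was not. Cfb, a protease subunit of the alternative pathway, had log2 changes from SNS of 1.03 in BYS and 0.96 in BNS. C4a rose by 0.82 (limma adjusted p = 0.00081), and its copy C4b could share the signal. C8g, of the terminal complex, rose by 0.58. C2 rose by 0.57 (limma adjusted p = 0.0122), with a BNS change of 0.10. Without BYS replicates 3 and 4, C2 (0.172) and Cfb (0.0525) were not called. The receptor C5ar1 was well above background in 1 of 4 SNS, 2 of 4 BNS and 4 of 4 BYS samples, with log2 intensities of 8.20, 7.63, 7.64 and 7.80 in SNS and 7.72, 7.81, 7.96 and 7.78 in BYS.

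C1q and C3 in the brain are made largely by microglia, whose markers moved in both directions. Of 19 microglial genes 5 rose and 1 fell (31.6% called, close to the 27.1% of all genes), with a median of 0.33 in BYS and 0.06 in BNS, and the mean log2 level over the list was 10.1 to 10.2 in SNS, 10.1 to 10.4 in BNS and 10.2 to 10.5 in BYS. Without BYS replicates 3 and 4 there were 2 rises and 1 fall, with a median of 0.11. Without replicates 1 and 2 there were 7 rises and 1 fall, with a median of 0.44. Lysozyme Lyz2 rose by 1.18 (limma adjusted p = 0.00016), with a BNS change close to this (1.04). The protease Ctss rose by 0.77, the receptor chain Fcer1g by 0.57 and the phosphatase Ptprc (CD45) by 0.54. The markers of resting microglia stood otherwise. Cx3cr1 fell, P2ry12, Tmem119, Aif1 and Csf1r had log2 changes of −0.48, −0.20, −0.16 and −0.10 and were not called, and Tmem119 was well above background in 3 of the 4 SNS samples. Cd74, the chaperone of class II histocompatibility molecules, had 9.44, 9.35, 9.54 and 9.73 in BYS and 8.53, 8.24, 8.65 and 8.86 in BNS, with every BYS sample the higher, a difference of 0.94 (limma adjusted p = 0.325). How far the amount of microglia bears on the complement genes was not tested.

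Immediate early genes, which neurons switch on within minutes of firing, and cytokine genes were highest on the array of BYS replicates 3 and 4. Of 39 immediate early and activity genes 4 rose in BYS and 0 fell (Crem by 0.50, Klf4 by 0.71, Dusp6 by 0.62 and Fosl1), a share of 10.3% under the 14.5% of all genes higher, with a median of 0.32 against −0.01 in BNS. Without BYS replicates 3 and 4 there was 1 rise and a median of 0.06, and without replicates 1 and 2 there were 12 rises and a median of 0.48. Dusp6, a phosphatase that ends ERK signalling, had 11.15, 11.00, 10.99 and 11.01 in SNS and 11.38, 11.75, 11.68 and 11.84 in BYS (limma adjusted p = 0.00207), and here all 4 BYS samples were the higher. Fosl1 was not well above background in any SNS or BNS sample and was so in BYS replicates 3 and 4, at 10.73 and 10.61. Its log2 change from the dim SNS signals was 1.77 (limma adjusted p = 0.0476), a call that was lost without these 2 samples. Jun, a partner of Fos, had 11.19, 11.02, 10.72 and 11.33 in SNS, 9.99, 10.76, 10.56 and 10.36 in BNS and 11.43, 10.54, 11.63 and 12.04 in BYS, with the lowest value in BNS and the highest in BYS replicates 3 and 4. Its BYS minus BNS difference was 0.99 (limma adjusted p = 0.434), without replicates 1 and 2 it was 1.42 (0.0206), and without replicates 3 and 4 it was 0.57 and not called. In all, 8 of the 39 genes (20.5%, against 6.92% of all genes in either direction) had an unadjusted p under 0.05 between BYS and BNS. Each of the 8 was higher in BYS, and without replicates 3 and 4 there was 1 such gene.

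Of 31 inflammatory cytokine and NF-kB genes 4 rose and 0 fell (12.9% called, under the 27.1% of all genes), with medians of 0.32 in BYS and 0.07 in BNS, and 0.03 without BYS replicates 3 and 4. The adaptor of toll-like receptors Myd88 rose by 0.76, the chemokine Cxcl12 by 0.48 and the growth factor Tgfb2 by 0.41. Ccl3 rose by 2.30 (standard error 0.80, limma adjusted p = 0.0407). This lay in 2 of 4 samples, and without them the change was 0.19 (limma adjusted p = 0.827). Il1b, Il1a and the inducible nitric oxide synthase Nos2 were not called, with log2 changes of 0.41, 0.53 and 0.07.

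The glucocorticoid receptor, on which betamethasone and the stress hormone corticosterone both act, switches on a known set of genes. Of 30 of these, 6 rose and 1 fell in BYS (23.3% called, under the 27.1% of all genes), with a median of 0.38 against 0.06 in BNS. Under the 3 other scalings 4 to 8 rose, 0 to 1 fell and the median was 0.28 to 0.50. Without BYS replicates 3 and 4, 2 rose and 0 fell, with a median of 0.18. Without replicates 1 and 2, 10 rose and 1 fell, with a median of 0.58. The sulfotransferase Sult1a1 rose by 1.50 (limma adjusted p = 0.000179), with 9.23, 9.33, 9.32 and 9.29 in SNS and 10.77, 10.55, 10.76 and 11.10 in BYS, and by 1.66 in BNS. Klf9, a factor that glucocorticoid and thyroid hormone both induce, rose by 0.61 with 3 measured SNS samples, and the clock gene Per1 fell by 0.39. Lipocalin 2 (Lcn2), an iron-binding protein of reactive astrocytes, had 9.13, 8.85, 10.08 and 10.14 in BYS and was called (1.08, limma adjusted p = 0.0143), but not without replicates 3 and 4 (0.266).

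Fkbp5, the co-chaperone that dampens the glucocorticoid receptor and a sensitive gauge of it, had its lowest mean in BNS and its highest in BYS. Its log2 intensities were 11.23, 11.32, 11.33 and 11.12 in SNS, 10.95, 11.00, 11.03 and 11.13 in BNS and 11.28, 11.58, 11.88 and 12.23 in BYS, with all 4 BYS samples above all 4 BNS samples and the highest ones on the array of replicates 3 and 4. The BYS minus BNS difference of 0.72 was not called (limma adjusted p = 0.557). Of the list, 8 genes (26.7%, against 6.92% of all genes in either direction) had an unadjusted p under 0.05 in that comparison. These were Fkbp5, Cebpd, Cebpb, Nfkbia, Bcl6, Angptl4, Cdkn1a and Lcn2, all higher in BYS, and without replicates 3 and 4 there were 0. The receptor itself, Nr3c1, was not called (log2 change 0.22).

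Among the peptides that define the arcuate nucleus few were called. Of 29 neuropeptide and transmitter enzyme genes 3 rose and 2 fell (17.2%, under the 27.1% of all genes), with a median of −0.08. With the array as a random block 0 rose and 0 fell. Between BYS and BNS 0 of the 29 had an unadjusted p under 0.05, where 6.92% of all genes did. Npy, the feeding peptide of the Agrp neurons, had log2 intensities of 14.80, 15.11, 15.60 and 15.25 in SNS and 14.22, 14.65, 14.17 and 14.73 in BYS, and Tac3, the neurokinin B of the neurons that drive reproductive hormone pulses, had 13.17, 13.22, 12.99 and 13.05 and 11.89, 11.74, 12.51 and 13.23. Both were lower in BYS (−0.75 and −0.76, limma adjusted p = 0.0485 and 0.0439). BYS replicate 4 had the highest Tac3 value of both groups. Neither call was kept with the array as a random block (limma adjusted p = 0.17 and 0.129). That of Npy was lost when any of 6 of the 8 samples was left out, and that of Tac3 when any of 7 was, and without BYS replicates 1 and 2 the Tac3 change was −0.23.

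Nucb2, the precursor of the satiety peptide nesfatin, rose by 0.66 (limma adjusted p = 0.0161), with 9.45, 9.55, 10.37 and 10.24 in SNS and 10.67, 10.62, 10.80 and 10.16 in BYS, and by 0.96 in BNS. BYS replicate 4 lay within the SNS range, and the call was lost without SNS replicate 1 or 2, without BYS replicate 3 or without the array of BYS replicates 1 and 2. It was also lost with the array as a random block (limma adjusted p = 0.0583). Adcyap1, the peptide PACAP, rose by 0.59 (limma adjusted p = 0.0381). Agrp, Pomc, Cartpt, Ghrh, Kiss1 and Th had log2 changes of 0.19, −0.38, −0.24, −0.27, −0.16 and −0.10 and were not called. Of 34 hormone and peptide receptors 4 rose and 2 fell (17.6% called, under the 27.1% of all genes). The melanocortin receptor Mc4r, on which Agrp and the Pomc peptides act, rose by 0.54 (limma adjusted p = 0.00554) and was not called without BYS replicates 1 and 2 (0.0853). Crhr1, the receptor of corticotropin-releasing hormone, fell by 0.63, and the PACAP receptor Adcyap1r1 rose by 0.34. Of the hypothalamic transcription factors, 23 in number, 1 rose and 1 fell (8.7% called). Dlx1, a factor of GABA neurons, rose by 0.82, and Pou3f2, a neuronal POU factor, had a log2 change of −0.62.

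Genes of GABA, the main inhibitory transmitter, and of glutamate were called in both directions. Of 34 genes of GABA synthesis, transport and GABA-B signalling 4 rose and 4 fell, which is 23.5% against 27.1% of all genes. Gad2, an enzyme that makes GABA, was higher by 0.69 (limma adjusted p = 0.0333) and was not called without SNS replicate 3 or 4 or BYS replicate 2, 3 or 4, or without either BYS array. Gabarapl2, an autophagy protein linked to GABA-A receptor traffic, had log2 intensities of 13.46, 13.43, 13.42 and 13.54 in SNS, 13.02, 13.15, 13.20 and 12.97 in BNS and 12.90, 12.79, 12.96 and 12.49 in BYS, so that BYS was the lowest. It fell by 0.68 (limma adjusted p = 0.000219). Slc38a1, which brings glutamine into neurons, fell by 0.92 (limma adjusted p = 0.00295), and its relative Slc38a2 rose by 0.83. Without BYS replicates 1 and 2 the change of Slc38a1 was −0.53 and not called (limma adjusted p = 0.0687).

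The lists of this paragraph were called at shares of 7.69% to 12%, under the 27.1% of all genes. Of 13 GABA-A receptor subunits 1 was called. Gabrb1 had log2 intensities of 11.15 and 11.11 in the 2 measured SNS samples, both on 1 array, and 12.97, 12.93, 13.17 and 13.15 in BYS, a change of 1.93 (standard error 0.19, limma adjusted p = 4e-06) with BNS changed by 1.70. Of 25 NMDA receptor genes and partners 1 rose (Dlgap4, a scaffold of the synapse, by 0.88) and 2 fell (the scaffold Homer2 and the enzyme Srr, which makes the co-agonist D-serine, with log2 changes of −0.68 and −0.47), and the subunits Grin1, Grin2a and Grin2b were not called (−0.37, −0.04 and 0.11). Of 24 AMPA and kainate genes 1 rose (the subunit Gria4, by 0.45, limma adjusted p = 0.00295) and 1 fell (Cacng7, a subunit that steers AMPA receptors, with a log2 change of −0.45). Of 22 metabotropic receptor and glutamate transport genes 0 rose and 2 fell, Glud1 and Got2, enzymes that make and use glutamate (−0.49 and −0.33).

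Of 47 genes of vesicle release, 10 rose and 3 fell (21.3% higher, against 14.5% of all genes), with a median of 0.04, whereas BNS had 5 rises and 7 falls. With the array as a random block 4 rose and 1 fell in BYS. The median and the counts turned with the scaling, from −0.05 with 1 rise and 0 falls (equal medians) to 0.22 with 2 rises and 2 falls (processed signals). The vesicle protein Vamp2 rose by 1.33 (limma adjusted p = 0.00199), with 12.37, 10.92, 12.90 and 12.62 in SNS and 14.18, 13.12, 13.71 and 13.10 in BYS, its membrane partner Stx1a by 0.79, the calcium sensor Syt1 by 0.66 (well above background in 2 of 4 SNS samples) and the active zone protein Erc2 by 0.57. Rims3, another active zone protein, fell by 0.72 (limma adjusted p = 0.00367), and was not called without BYS replicates 3 and 4 (0.0622).

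Potassium channels, which end the action potential, had 4 rises and 8 falls of 50 in BYS (24.0% called, under the 27.1% of all genes) and 2 rises and 14 falls in BNS. With equal medians BYS had 1 rise and 2 falls, and with processed signals 2 of each. Kcnc1, a channel of fast-spiking neurons, had 10.22, 10.05, 10.11 and 9.96 in SNS and 9.44, 9.57, 9.36 and 9.14 in BYS (a log2 change of −0.71, limma adjusted p = 0.00248), and the log2 changes of the calcium-binding partner Kcnip3 and the subunit Kcnab2 were −0.78 and −0.60. The inward rectifiers Kcnj6 and Kcnj14 rose by 0.57 and 0.57. Of 13 sodium channel genes 0 rose and 2 fell (15.4% called). Among the falls was Scn3a, a channel of the developing brain, with a log2 change of −0.64 (limma adjusted p = 0.0113, and 0.15 without BYS replicates 1 and 2). The BNS change of Scn3a was −1.12.

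Of 29 genes whose variants cause infantile spasms in children, 2 rose and 1 fell in BYS (10.3% called, under the 27.1% of all genes), and 2 rose and 8 fell in BNS. The medians were −0.06 in BYS and −0.32 in BNS, with BYS at −0.09 to 0.08 under the 3 other scalings. Plcb1, a phospholipase that acts behind receptors, rose by 0.55. Between BYS and BNS 6 of the 29 (20.7%, against 6.92% of all genes) had an unadjusted p under 0.05 (5 higher, 1 lower, 0 called by limma). Without BYS replicates 3 and 4 there were 5. Kcnt1, a sodium-activated potassium channel, had 10.13, 10.57, 10.55 and 10.29 in SNS, 9.80, 8.99, 10.31 and 10.55 in BNS and 10.78, 10.60, 10.56 and 10.52 in BYS, a BYS minus BNS difference of 0.70 (standard error 0.23, limma adjusted p = 0.545). For the NMDA subunit Grin2a they were 9.07, 8.90, 8.66 and 8.43 in SNS, 7.05, 7.54, 8.58 and 8.44 in BNS and 8.74, 8.56, 8.72 and 8.89 in BYS, with BNS replicates 1 and 2, which share an array, the low ones.

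Genes that all cells use were called in both directions, at shares (21.6% to 29.9%) close to the 27.1% of all genes. Of 94 cytosolic ribosomal protein genes 15 rose and 11 fell, of 83 genes of oxidative phosphorylation 10 rose and 11 fell, of 67 mitochondrial ribosomal proteins 8 rose and 12 fell, and of 37 proteasome subunits 3 rose and 5 fell, with medians of −0.12, −0.10, −0.14 and −0.13. With equal channel medians there were few calls and the falls were mostly lost, with 4 rises and 0 falls, 5 and 0, 2 and 1, and 0 and 0. In complex I of the respiratory chain Ndufa9 rose by 1.21, whereas Ndufa7 fell by 0.70. Sterol synthesis had 5 rises and 2 falls of 24. Hmgcs1, which makes the precursor HMG-CoA, rose by 1.21 (limma adjusted p = 3.27e-05, with 2 measured SNS samples).

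Signalling genes were called in both directions too. The lists of this paragraph were called at shares of 6.9% to 22.6%, under the 27.1% of all genes. Of 43 kinase pathway genes 6 rose and 2 fell, with the catalytic subunits of protein kinase A, Prkacb and Prkaca, up by 1.01 and 0.69 and the GTPase Hras at a log2 change of −0.51. Of 29 G protein and adenylyl cyclase genes 2 were called higher and 0 lower, and 1 of the 2, Gnal (0.94), averages 2 probes called in opposite directions (log2 changes of 2.31 and −0.43), so that it has no settled direction. Of 23 dopamine and noradrenaline genes 3 rose and 2 fell. Gch1, which makes the cofactor of tyrosine hydroxylase, rose by 1.10 (limma adjusted p = 0.00157, and by 0.65 without BYS replicates 3 and 4), and the adrenergic receptor Adra2b had a log2 change of −0.83 (0.00104). BNS changes were close to these, 1.12 for Gch1 and −1.08 for Adra2b. Of 36 neurotrophic and insulin-like genes 5 rose and 1 fell, among them the insulin receptor substrate Irs2 by 0.71 and the binding protein Igfbp3 by 0.84. Of 26 DNA methylation and deacetylase genes 5 rose and 0 fell (19.2% called), with the deacetylases Hdac3 and Sirt2 up by 0.66 and 0.61, and with equal medians 1 rose and 0 fell. Of 31 cell cycle genes 3 rose and 4 fell, the latter being the cyclin Ccnd1 (−0.45) and the replication helicase subunits Mcm4, Mcm5 and Mcm6 (−0.45, −0.37 and −0.37).

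Markers of cell types other than microglia were called at shares of at most 25.9% a list, under the 27.1% of all genes. Of 20 astrocyte genes 2 rose (Lcn2 and the gap junction protein Gja1), and 0 with the array as a random block. Gfap, the filament that reactive astrocytes make, was not called, with a log2 change of 0.81 (standard error 0.30, limma adjusted p = 0.0533). Its BYS log2 intensities were 9.59, 8.86, 10.36 and 10.55 against 9.10, 8.89, 9.09 and 9.05 in SNS, so that replicates 3 and 4 were again the highest. Without replicates 1 and 2 the change was 1.42 (limma adjusted p = 0.00231), and without replicates 3 and 4 it was 0.19 (0.675). Of 25 oligodendrocyte genes 1 rose and 2 fell, and Olig2, the factor of their precursors, rose by 1.27 (limma adjusted p = 6.89e-07), from 11.35, 11.26, 11.21 and 11.39 in SNS to 12.65, 12.77, 12.28 and 12.56 in BYS, with BNS raised by 1.05. Vessel genes had 3 rises and 4 falls of 27, with the endothelial Cldn5 and Pecam1 among the falls (−0.38 and −0.35). Pituitary genes had 0 rises and 1 fall of 6, choroid plexus genes 1 and 0 of 9, thalamus genes 1 and 0 of 10, and tanycyte and ependyma genes 1 and 2 of 20. The choroid plexus transporter Ttr had 12.49, 10.18, 11.30 and 10.07 in SNS and 11.24, 10.28, 9.06 and 9.76 in BYS, with a range in each group larger than the difference of their means. Of 97 odorant, taste and vomeronasal receptors, genes with little known role in the brain, 10 rose and 14 fell (24.7% called, close to the 27.1% of all genes), and with equal medians 0 rose and 5 fell. Against BNS, 4 of the 97 lay wholly higher in BYS and 21 wholly lower, where 6.43% of all genes did not overlap in either direction. At an unadjusted p under 0.05 there were 16 (16.5%, against 6.92% of all genes), 3 higher and 13 lower. Tas2r110 and Or13m2 are among the 3, and 16 of the 97 genes were well above background in all 12 samples.

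Further calls against SNS named above for list members were lost when a BYS array was left out. With either array left out, Adcyap1, Adcyap1r1, Creld2, Ctss, Gja1, Glud1, Got2, Homer2, Klf9, Npy, Pecam1 and Per1 were not called. With only replicates 3 and 4 left out this held for Ccnd1, Crhr1, Dlgap4, Ern1, Fcer1g, Hspe1, Kcnip3, Klf4, Mcm6, Ptprc, Sdf2l1 and Tgfb2, and for Myd88, Crem, Prkacb and Cldn5, whose log2 changes moved to 0.40, 0.33, 0.56 and −0.19. With only replicates 1 and 2 left out it held for Cacng7, Cxcl12, Kcnab2, Kcnj6, Mcm4, Pdia6, Sirt2 and Stx1a. For some genes given above as averages, 1 of 2 probes was called and the other, with a smaller change, was not. The log2 changes of the called and the other probe were 0.82 and 0.07 for Gria4, 1.05 and 0.09 for Erc2, and 1.01 and 0.12 for C2. They were 1.47 and −0.09 for Prkaca, 0.91 and 0.23 for Fcer1g, and 0.87 and 0.23 for Plcb1. For Tgfb2 they were 0.67 and 0.15, for Mcm4 −0.72 and −0.19 and for Sdf2l1 0.80 and 0.46.

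**Figure D5:**
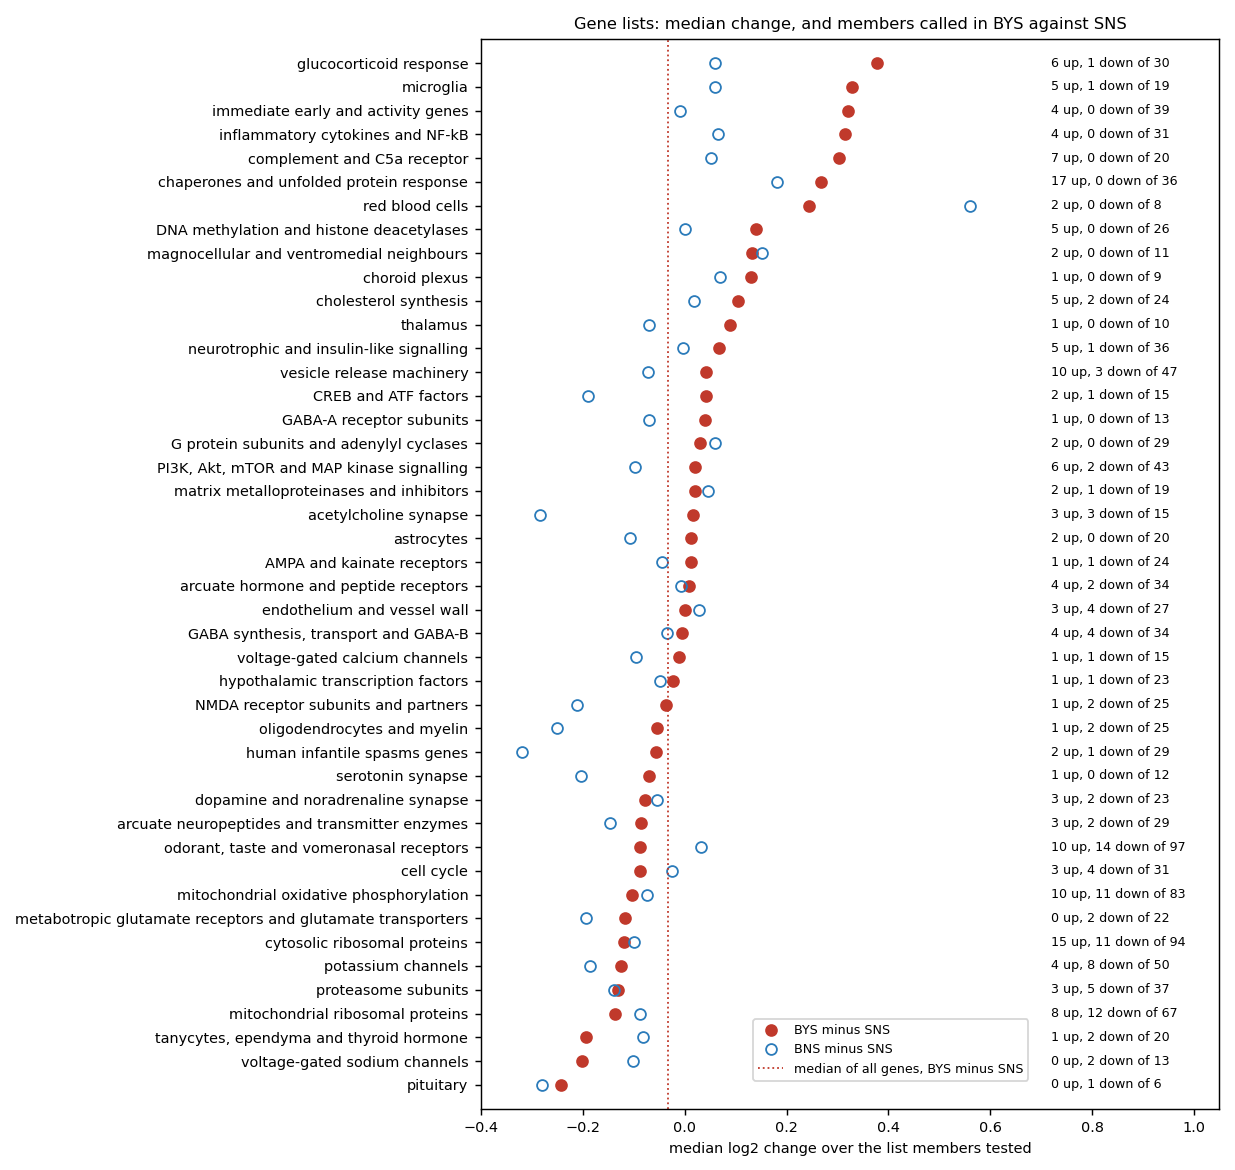
Median log2 change (horizontal axis) over the tested members of each gene list, for BYS minus SNS (filled red) and BNS minus SNS (open blue), with the number of members called higher and lower in BYS at the right. The dotted line is the median of all genes in BYS minus SNS, −0.03. Glucocorticoid response, microglia, immediate early, cytokine, complement and chaperone genes have the highest BYS medians (0.27 to 0.38), and the infantile spasms genes lie at −0.06 in BYS and −0.32 in BNS. Without BYS replicates 3 and 4 the medians of those highest lists were 0.03 (cytokine genes) to 0.27 (chaperone genes).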

How the data were processed

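Total RNA of the arcuate nucleus was measured on 2-colour (Cy3 and Cy5) Agilent rat arrays (design on rn4), 11 arrays on 6 slides. Per the file headers the authors deposited scanner output of Agilent Feature Extraction (11.5.1.1, and 10.7.3.1 in the submitters' processing notes), with spot and background intensity and 0/1 flags for each channel, not normalized between arrays. The intensities were background-corrected here (normexp, offset 50), quantile-normalized over the channels and put on the log2 scale, whereas the deposited log2 ratios of the 2 channels of an array, which compare animals of the same condition, were not used. Outlier spots (1.18%) were dropped and count as missing, and the spots of a probe were averaged. Probes well above background in at least 0.5 of their spots in all samples of at least 1 condition were kept (19883 of 30367). Probes were named by accession through RefSeq (18643, 61.4%) and otherwise by the name in the file, and complete probes of a gene were averaged, giving 17086 genes, 3 of which had no SNS value. In 85 of the 1232 genes with over 1 probe and a called probe, probes were called in both directions.

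limma 3.58.1 (R 4.3.3) fitted condition and dye to all 20 samples, which share 1 estimate of the spread, with p-values adjusted over all genes. The smallest p of an exact permutation test of 4 against 4 samples is 0.0286, so single values were tested by limma only. On simulated data for BYS against SNS (16299 genes, 50 changed per size) the test recovered 23 of 50 changes of 0.5, 46 of 1, 47 of 1.5 and 50 of 2 log2 units, with 2 false calls. The simulated noise was independent between samples, with no effect of array or slide. In the data the samples of an array were correlated (consensus correlation 0.365), so the simulation cannot give the number of false calls there. Groups follow the labels. The 82 columns of samples of another series were not used.

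The genes named are those with the largest changes against SNS (up to 10 in each direction, well above background in all 8 samples, groups not overlapping), those with the largest BYS minus BNS difference among genes that differ from both groups (up to 6 in each direction), those called for that difference, and members of 44 gene lists. Some genes that these rules name are not reported here. The members of the comparison and the lists were chosen with earlier results of these data known. Alternatives were other scalings, filters, probe choice, samples in the fit, the array or the replicate number as a block, the methods' t-test and each sample left out. Leaving out a whole array, and the search for genes in which an array stands apart, were added after seeing the data. Promoters came from RefSeq (GRCr8), matched by symbol.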

Additional observations from a re-analysis of the deposited data

Results flagged for a closer look

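In 13 of 226 sets of 4 samples 1 sample lay far from the other 3 by Dixon's test, which marks about 1 in 20 sets by chance. Within BYS these were the log2 intensities of Cx3cr1 in replicate 4 (11.3, the highest), Haus1 in replicate 4 (8.34, the lowest), Ddit3 in replicate 4 (12.6, the highest), Tas2r110 in replicate 3 (8.33, the highest) and C1qa in replicate 2 (12.4, the lowest). Within SNS they were Rps20 in replicate 1 (12.9, the lowest), C2 in replicate 4 (9.10, the lowest), and Dusp6 in replicate 1 (11.2, the highest). Within BNS they were Haus1 (8.53) and Tas2r110 (7.07) in replicate 3, both the lowest, C2 (9.68) and C1qc (9.85) in replicate 4, both the highest, and Fosl1 in replicate 1 (7.17, the lowest).

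The BYS and the BNS change from SNS differed by limma for Timp3 (0.98), Pnma2 (0.83), Tas2r110 (0.71), Or13m2 (0.64) and Klhl30 (−0.50), each a BYS minus BNS log2 difference. Tas2r110 and Or13m2 entered this test only through BYS, in which they are high, so their calls are not support for a rise.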

How the results depend on the processing

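The count of genes called between BYS and SNS (4630) was 1435 with equal channel medians, 2317 with processed signals, 2377 with the array block, 2297 with the methods' t-test after Benjamini-Hochberg, 2921 without BYS replicates 3 and 4 and 2602 without replicates 1 and 2, and 3191 to 4425 with 1 sample left out. The methods' t-test at its own threshold called 5772 genes, and its combined criterion 5661. Without SNS replicates 1 and 2, limma called 3763 genes between BYS and SNS, and without SNS replicates 3 and 4 it called 4493. The count for BYS minus BNS (5) was 47 with equal medians, 1 with loess, 11 with processed signals, 2 with probes well above background in all 12 samples only, 0 with only the samples compared, 0 with the array block, 0 by the t-test after adjustment (1507 at its threshold and 1373 by the combined criterion), 8 without BYS replicates 3 and 4, 69 without replicates 1 and 2, and 0 to 11 with 1 sample left out. Equal medians also moved the median of all genes to 0.15 between BYS and BNS and to −0.13 between BYS and SNS. List members called (273) numbered 73 with equal medians, 128 with processed signals, 130 with the array block, 162 without BYS replicates 3 and 4, and 181 to 262 with 1 sample left out. The cause was not tested.

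With the replicate number as a block, 4869 genes were called between BYS and SNS, 5 for BYS minus BNS and 291 list members. The numbers do not pair samples (mean correlation of deviations 0.01 over 12 pairs with the same number and −0.00366 over other pairs).

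Of 105 results on single genes with 2235 values under alternatives, 1945 kept direction and call, 261 lost the call, 25 gained it and 4 turned. With processed signals the BYS minus SNS change was 0.0474 for G0s2, −0.23 for Klhl30 and −0.0455 for Kcnt1, and without BYS replicates 3 and 4 it was −0.0799 for Jun.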
